A study of Mus musculus with 4 samples.

Results

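The enzymes described here handle glutathione and protein thiols: the glutathione S-transferases (GSTs), glutathione peroxidases, peroxiredoxins, glutaredoxins, the 2 thioredoxins, glutathione reductase and glutathione synthetase. They were taken by name from the expression table of OG2ES, a line of mouse embryonic stem cells: every row whose name begins with Gst followed by a class letter, or with Mgst, Gpx, Prdx or Glrx, and the rows Txn1, Txn2, Gsr and Gss, leaving out 4 pseudogenes marked -ps. This gave 49 of 50600 rows. The study measured the transcriptome by RNA-seq in cells lacking Myh9 (Myh9 KO, 2 libraries) and in wild-type cells (WT, 2 libraries), all in mouse ES cell medium with 2i, inhibitors that hold the cells in the naive state, and with no further treatment. The labels give inner cell mass as the source of both, describe the edited allele no further, and do not say how many clones or cultures were used, so loss of Myh9 and other features of the edited line cannot be told apart. The p-values measure only how far these libraries vary, which may be technical variation.

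Glutathione is a small cysteine-containing peptide that cells keep mostly in its reduced form. GSTs attach it to reactive compounds, glutathione peroxidases use it to reduce peroxides, glutaredoxins use it to reduce protein disulfides, glutathione synthetase makes it and glutathione reductase restores it at the cost of NADPH. Peroxiredoxins reduce peroxides through a reactive cysteine that thioredoxin usually restores.

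Each library summed to between 992098 and 992317 in whole-number values with no unit given, so these are normalized values and the depth behind them is unknown. Levels are not compared between genes, since it is not stated whether values are per length, and the sums over marker lists are sums of the deposited values. Myh9 itself (ENSMUSG00000022443) had values of 9 and 9 in Myh9 KO and 83 and 100 in WT (log2 fold change -3.20, SE 0.12, limma adjusted p = 0.00675). Of 10 embryonic stem cell markers all were listed above 0 in every library, and Pou5f1 had values of 3104 and 3189 in Myh9 KO and 3045 and 3122 in WT. Among them Sox2 fell, with 126 and 121 in Myh9 KO and 177 and 183 in WT, as did Dppa5a, with 3438 and 3205 in Myh9 KO and 4755 and 4841 in WT. Zfp42 lay the other way, with 210 and 181 in Myh9 KO and 140 and 142 in WT, but was not called by both fits described below. Over the 10 markers 5 log2 fold changes were negative and 5 positive, with a median of -0.01. Of 10 feeder fibroblast markers 8 were at 0 in all libraries, Col1a1, Col1a2 and Col3a1 among them, and the list summed to 5 and 7 in Myh9 KO and 4 and 4 in WT. Of 7 primitive endoderm markers 4 were at 0 throughout, and the list summed to 8 and 8 in Myh9 KO and 2 and 4 in WT. Of 6 trophoblast markers 3 were at 0 throughout, and the list summed to 35 and 33 in Myh9 KO and 26 and 28 in WT, with Eomes at 11 and 11 in Myh9 KO and 6 and 6 in WT. The part of these shifts in the results below was not tested. The dividing-cell gene Mki67 was listed at 0 in all libraries, so a 0 can be a failed estimate.

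Of the 49 members, 38 had a mean value of at least 1 and were tested, and 14 differed between Myh9 KO and WT. A gene was called where 2 limma fits across all 11231 genes that passed the same filter, with and without random decimals added to the whole numbers, both gave a Benjamini-Hochberg adjusted p under 0.05 in the same direction. Fold changes are log2 differences of value + 1, which understates the change of low values. Among the members, 10 fell (26.3%) and 4 rose (10.5%), where 5.8% of all tested genes were called lower, 5.14% higher and 10.9% in either direction. The median log2 fold change of the 38 was -0.09, beside 0.00 over all tested genes, and 24 members were not called. The falls were in 4 transferases, 2 glutaredoxins, 2 peroxiredoxins, Gpx2 and Gss, and the rises in 3 transferases and Gpx4. Since these are bulk libraries, fewer cells of a kind and less RNA per cell cannot be told apart.

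**Figure D1:**
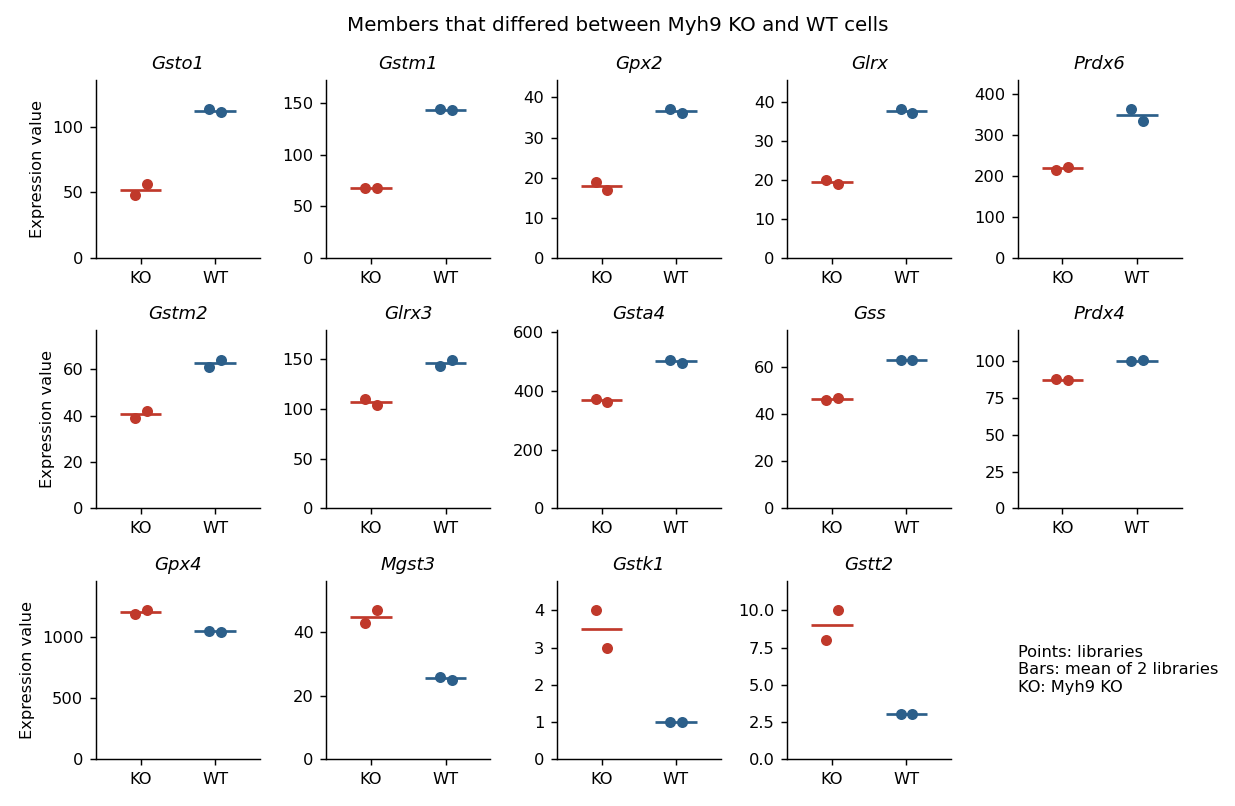
Expression values (y axes, each from 0, normalized values with no unit given) of the 14 members that differed, in 2 Myh9 KO and 2 WT libraries, each point a library and each bar the mean of 2. The first 10 panels are lower and the last 4 higher in Myh9 KO, as these members were chosen for a difference.

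With 1 library left out the 2 fits called fewer members. Without WT 1 they called 0 members higher and 1 lower, beside 1.18% and 1.75% of all tested genes, and without WT 2 they called 1 and 1, beside 1.39% and 1.73%. Without Myh9 KO 1 the counts were 1 higher and 5 lower, beside 2.98% and 3.69% of genes, and without Myh9 KO 2 they were 2 and 5, beside 2.38% and 2.6%. Gstm1 was the member called in all 4 of these fits. The member called higher without WT 2 was Prdx5, which both fits together did not call with all libraries. None of Gstt2, Gstk1, Mgst3 and Gpx4 was called by both fits without WT 1 or without WT 2. Among the members that fell, only Gstm1 was called by both fits without WT 1 or without WT 2. With the random-decimal fit alone, an alternative chosen after seeing the data, 2 members were higher and 9 lower without WT 1, beside 5.91% and 6.32% of genes, and 3 and 9 without WT 2, beside 6.86% and 5.86%. It called 5 and 10 without Myh9 KO 1, beside 11.2% and 13.5% of genes, and 5 and 10 without Myh9 KO 2, beside 8.57% and 9.99%. Gsto1, Gstm1, Gpx2, Glrx, Prdx6, Gstm2, Glrx3, Gsta4, Gss, Mgst3 and Gstt2 were called by it in all 4, Gpx4 in 2, Gstk1 in 1 and Prdx4 in 0.

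Fold changes moved with the GC content of a gene's transcripts. In the lowest of 5 equal GC classes (31.0% to 45.0%) the median log2 fold change was -0.15, and in the highest (56.1% to 76.3%) it was 0.11. The same classes also differed between the 2 Myh9 KO libraries, with medians of Myh9 KO 2 minus Myh9 KO 1 of -0.14 and 0.09. A trend on the GC content and length of each gene's longest transcript was taken out of each library (adjusting for GC content and length). With this adjustment 8 members were higher and 10 lower, beside 11.8% and 10.9% of all tested genes. The median log2 fold change with this adjustment was 0.06 for the members and 0.02 for all genes. Results that this changes are given beside the genes.

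Among the transferases, the largest falls were those of Gsto1 and Gstm1. Gsto1, an omega-class transferase that also reduces oxidised ascorbate and small disulfides, had values of 48 and 56 in Myh9 KO and 113 and 111 in WT. Its log2 fold change was -1.10 (SE 0.10, limma adjusted p = 0.0277), and both Myh9 KO libraries lay far below both WT libraries. Gsto2, its neighbour on chromosome 19, was listed at 0 in all libraries. Gstm1, a mu-class transferase of broad detoxifying activity, had values of 68 and 68 in Myh9 KO and 144 and 143 in WT (log2 fold change -1.07, SE 0.01, limma adjusted p = 0.00111, 95% confidence interval of the fold 0.464 to 0.491). Its replicates had equal or adjacent whole numbers, and with random decimals the adjusted p was 1.93e-05. Of the 50-base words of Gstm1 transcripts, 18.9% also occur in other genes, mainly the pseudogene Gstm2-ps1, which was listed at 0, and Gstm3.

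The mu class is a cluster of 7 genes on mm10 chromosome 3, all of which were tested. Besides Gstm1, Gstm2 fell, with values of 39 and 42 in Myh9 KO and 61 and 64 in WT (log2 fold change -0.61, SE 0.06, limma adjusted p = 0.0291). Gstm4, next to Gstm1, had values of 22 and 25 in Myh9 KO and 19 and 16 in WT. It was not called by both fits (log2 fold change 0.41, limma adjusted p = 0.174, random-decimal adjusted p = 0.0411), although its groups do not overlap, Myh9 KO lying above WT. Gstm3, Gstm5, Gstm6 and Gstm7 had values between 2 and 6 in every library and were not called.

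**Figure D2:**
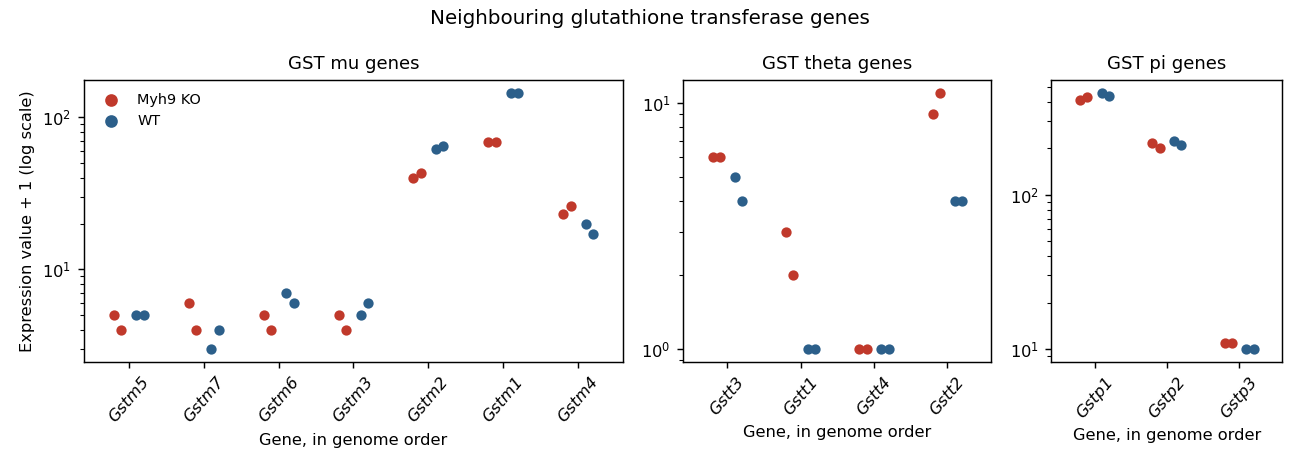
Expression values plus 1 (y axes, log scale, normalized values with no unit given) of the neighbouring mu, theta and pi transferase genes in genome order, with 2 Myh9 KO libraries left of 2 WT libraries for each gene. Gstm1 and Gstm2 lie lower and Gstt2 higher in Myh9 KO, while in the pi genes the groups lie close together; levels are to be read within a gene, since it is not stated whether values are per length.

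The alpha-class transferase Gsta4, which conjugates the lipid peroxidation product hydroxynonenal, had values of 373 and 361 in Myh9 KO and 504 and 494 in WT. The fall of 0.44 on the log2 scale (SE 0.03, limma adjusted p = 0.0148) was 0.24 after adjusting for GC content and length, where it was still called. Gsta3 had values of 7 and 7 in Myh9 KO and 7 and 8 in WT and was not called. Gsta1 and Gsta2 did not reach the filter, with values of 0 or 1, and 90.5% of the 50-base words of Gsta1 occur in other genes.

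Rises were found in the theta, microsomal and kappa classes. The theta-class gene Gstt2 had values of 8 and 10 in Myh9 KO and 3 and 3 in WT. On the scale of value + 1, Gstt2 had the largest rise of any tested member (log2 fold change 1.31, SE 0.13, limma adjusted p = 0.0327, confidence interval of the fold 1.83 to 3.39). Its neighbours on chromosome 10 were Gstt3, with 5 and 5 in Myh9 KO and 4 and 3 in WT and not called, Gstt1, with 2 and 1 in Myh9 KO and a listed 0 in WT and below the filter, and Gstt4, at 0 throughout. Mgst3, a membrane-bound transferase and peroxidase, had values of 43 and 47 in Myh9 KO and 26 and 25 in WT (log2 fold change 0.79, SE 0.06, limma adjusted p = 0.0238). Its relatives Mgst1 and Mgst2 were at 0 in every library, apart from a value of 1 for Mgst2 in WT 1.

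Gstk1, the kappa-class transferase of mitochondria and peroxisomes, had values of 4 and 3 in Myh9 KO and 1 and 1 in WT (log2 fold change 1.16, SE 0.14, limma adjusted p = 0.0448). Gstk1 lies on chromosome 6, where the median log2 fold change of tested genes was 0.45, and with the median of each chromosome removed it was not called (log2 fold change 0.72, limma adjusted p = 0.0532, random-decimal adjusted p = 0.134). On chromosome 8, where the median was 0.21, lie Gsr and Prdx2, neither of which was called.

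The pi class, abundant in many embryonic and tumour cells, was not called. Gstp1 had values of 411 and 433 in Myh9 KO and 460 and 439 in WT, and the fold had a 95% interval of 0.843 to 1.05. Gstp2 had 215 and 201 in Myh9 KO and 221 and 209 in WT, and Gstp3 had 10 and 10 in Myh9 KO and 9 and 9 in WT. The groups overlap in Gstp2 and lie side by side in Gstp1. Of the 50-base words of Gstp1 and Gstp2, 33.7% and 54.3% occur in other genes, mainly in each other and in the pseudogene Gstp-ps (21 and 14 in Myh9 KO, 24 and 26 in WT), so the split between them is uncertain. Gstz1, which acts in tyrosine breakdown, had 26 and 26 in Myh9 KO and 26 and 28 in WT and was not called.

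Of 8 glutathione peroxidases 6 were tested, 1 fell and 1 rose. The annotation marks a selenocysteine, encoded by an in-frame TGA, in the 4 members Gpx1, Gpx2, Gpx3 and Gpx4; the others carry none. The codon and the 12 bases on each side are shown because these 4 genes share the feature while 1 rose, 1 fell and 2 were not called, with the TGA in capitals (GENCODE vM21 transcripts, coding strand, mm10).
Gpx1 (chr9:108339439-108339465, plus strand): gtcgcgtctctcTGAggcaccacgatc
Gpx2 (chr12:76795244-76795270, minus strand): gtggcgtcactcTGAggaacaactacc
Gpx3 (chr11:54907244-54907270, plus strand): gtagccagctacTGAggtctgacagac
Gpx4 (chr10:80054725-80054751, plus strand): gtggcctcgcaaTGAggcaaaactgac

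Gpx2, known best from intestinal epithelium, had values of 19 and 17 in Myh9 KO and 37 and 36 in WT (log2 fold change -0.98, SE 0.07, limma adjusted p = 0.0205). Gpx4, which reduces phospholipid peroxides in membranes and so protects against ferroptosis, rose slightly, with values of 1184 and 1217 in Myh9 KO and 1051 and 1039 in WT (log2 fold change 0.20, SE 0.02, limma adjusted p = 0.0344). Of its 50-base words 34.7% occur in other genes, mainly the pseudogene Gpx4-ps2. Gpx1, the main cytosolic peroxidase, had 1505 and 1638 in Myh9 KO and 1693 and 1664 in WT and was not called (confidence interval of the fold 0.819 to 1.07). The secreted Gpx3 had 20 and 20 in Myh9 KO and 17 and 17 in WT and was called by limma (adjusted p = 0.0266) but not with random decimals (adjusted p = 0.167). The selenium-free Gpx7 of the endoplasmic reticulum had 20 and 22 in Myh9 KO and 25 and 28 in WT and was not called, but was called lower after adjusting for GC content and length (log2 fold change -0.32). Its relative Gpx8 had 2 and 3 in Myh9 KO and 3 and 3 in WT. Gpx5 was at 0 and Gpx6 at 0 or 1.

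The peroxiredoxins gave 2 falls, in Prdx6 and Prdx4. Prdx6, which draws on glutathione rather than thioredoxin and also repairs oxidised phospholipids, had values of 216 and 222 in Myh9 KO and 363 and 334 in WT (log2 fold change -0.67, SE 0.06, limma adjusted p = 0.0266). In Prdx6 the gap between the groups was wider than the spread within either. Prdx4, the peroxiredoxin of the endoplasmic reticulum, had 88 and 87 in Myh9 KO and 100 and 101 in WT, a small fall (log2 fold change -0.20, SE 0.01, limma adjusted p = 0.021, random-decimal adjusted p = 0.0462). After adjusting for GC content and length its log2 fold change was 0.06, the other way, and it was not called. With the median of its chromosome removed Prdx4 was not called either (log2 fold change -0.14, limma adjusted p = 0.116, random-decimal adjusted p = 0.129). The same held with no filter on the mean value (random-decimal adjusted p = 0.0538).

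The 4 remaining expressed peroxiredoxins were not called. Prdx1, the abundant cytosolic form, had 1078 and 989 in Myh9 KO and 1014 and 968 in WT (confidence interval of the fold 0.897 to 1.21), and Prdx2 had 552 and 541 in Myh9 KO and 505 and 515 in WT. Prdx2 shares 5.80% of its exon bases with Rnaseh2a on the opposite strand, which rose (263 and 261 in Myh9 KO, 221 and 223 in WT). The mitochondrial Prdx3 had 72 and 70 in Myh9 KO and 78 and 75 in WT. Prdx5, found in mitochondria and peroxisomes, had 112 and 112 in Myh9 KO and 87 and 94 in WT (log2 fold change 0.31, limma adjusted p = 0.0685, random-decimal adjusted p = 0.0116). It shares 19.1% of its exon bases with Trmt112 on the opposite strand (249 and 260 in Myh9 KO, 209 and 191 in WT), and the library protocol names no step that marks the strand, so reads from the shared stretch cannot be told apart. After adjusting for GC content and length, Prdx1, Prdx2 and Prdx5 were each called higher, with log2 fold changes of 0.30, 0.22 and 0.24. With the median of its chromosome removed, Prdx2 had a log2 fold change of -0.10, the other way, and was not called. Prdx6b and Prdx2-rs3 were at 0.

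The 4 glutaredoxins all had negative log2 fold changes, and 2 of them fell. Glrx, the cytosolic enzyme that removes glutathione from proteins, had values of 20 and 19 in Myh9 KO and 38 and 37 in WT (log2 fold change -0.91, SE 0.04, limma adjusted p = 0.00892). Glrx3, which takes part in iron-sulfur cluster handling, had 110 and 104 in Myh9 KO and 143 and 149 in WT (log2 fold change -0.45, SE 0.04, limma adjusted p = 0.0342). Of the 50-base words of Glrx3, 15.1% occur in other genes. The mitochondrial Glrx5, also an iron-sulfur protein, had 83 and 79 in Myh9 KO and 82 and 86 in WT, and Glrx2, with 38 and 28 in Myh9 KO and 37 and 42 in WT, spread more widely within Myh9 KO than the means of the groups differed. Neither was called.

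The 2 thioredoxins and glutathione reductase, which carry reducing power from NADPH or return it to glutathione, were not called. Txn1, the cytosolic thioredoxin, had 331 and 336 in Myh9 KO and 337 and 319 in WT (confidence interval of the fold 0.931 to 1.11), and after adjusting for GC content and length it was called higher (log2 fold change 0.28). Txn2, the mitochondrial form, had 274 and 277 in Myh9 KO and 252 and 261 in WT. Gsr had 141 and 148 in Myh9 KO and 141 and 143 in WT, with an interval of 0.939 to 1.10. Gss, which completes glutathione synthesis, fell, with 46 and 47 in Myh9 KO and 63 and 63 in WT (log2 fold change -0.43, SE 0.02, limma adjusted p = 0.00909). It shares 6.68% of its exon bases with Acss2 on the opposite strand, which had 6 and 7 in Myh9 KO and 7 and 5 in WT. Gss also shares 5.44% with Gssos1 and 6.51% with Gssos2, antisense genes whose values were not examined.

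**Figure D3:**
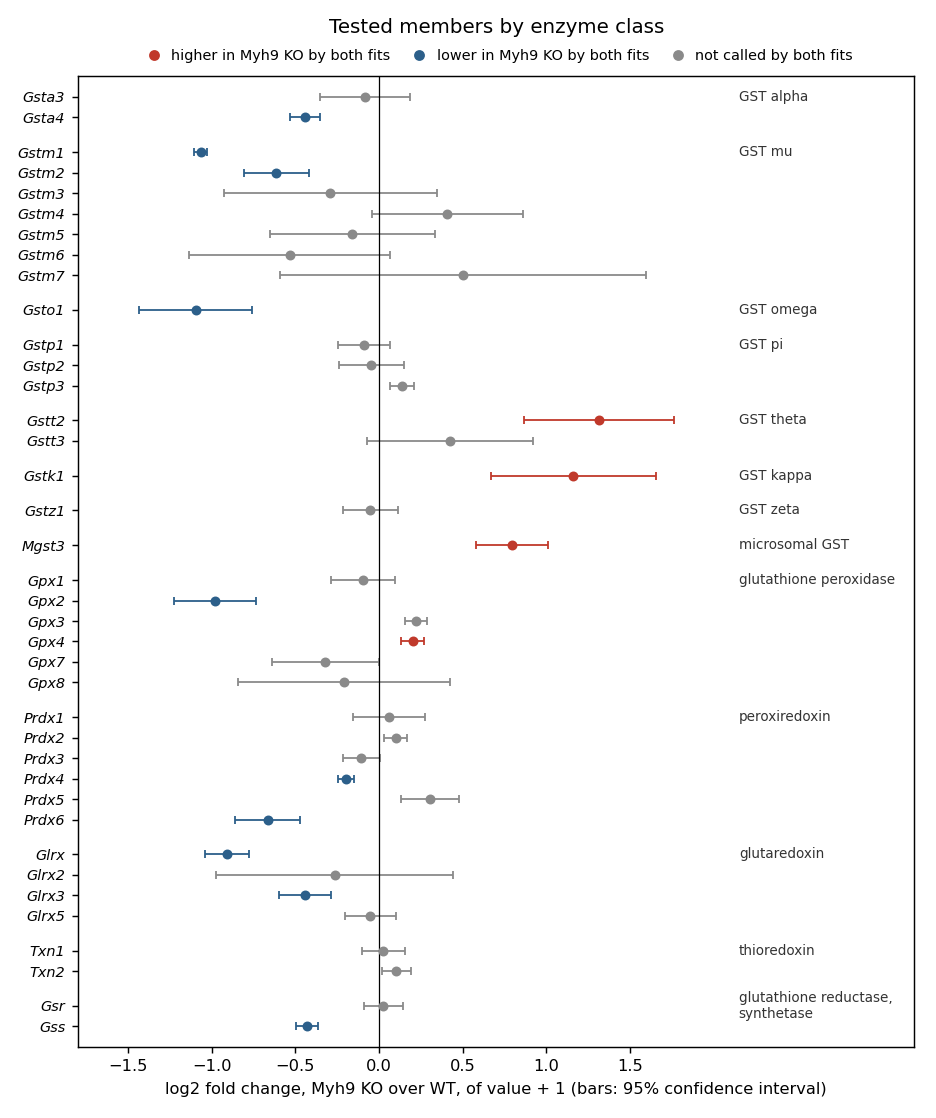
Log2 fold change, Myh9 KO over WT, of value + 1 (x axis) for the 38 tested members, grouped by enzyme class, with 95% confidence intervals from limma (n = 2 libraries per group). Gsto1, Gstm1, Gstm2, Gsta4, Gpx2, Prdx6, Glrx, Glrx3 and Gss lie to the left and Gstt2, Gstk1 and Mgst3 to the right, while the thioredoxins, the pi class and Gsr lie near 0.

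**Figure D4:**
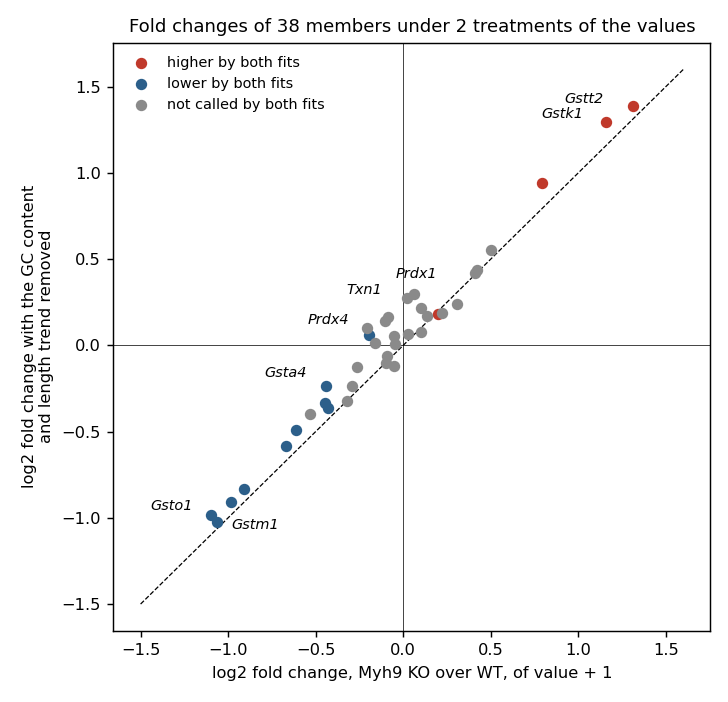
Log2 fold change of the 38 tested members as measured (x axis) and after adjusting for GC content and length (y axis), each Myh9 KO over WT; the dashed line marks equal values. Gsto1 and Gstm1 hardly move, Gsta4 lies closer to 0, Prdx4 crosses 0, and Prdx1 and Txn1 lie higher.

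Promoter sequences are shown because several of these genes are known targets of the oxidative stress factor NRF2. Windows of 300 bases from 250 bases before to 50 after each start were taken from RefSeq (GRCm38.p6), which held 43 of the 49 members. The core of the antioxidant response element, which NRF2 binds, was searched as TGACNNNGC on both strands, and a match can overlap the AP-1 site TGANTCA. It was found in 12.4% of all 32851 windows and in 5 of the 59 windows of members (Gsta3, Gstm5, Gstm7, Mgst1 and Prdx1). Of the called members with a window, 0 of 8 that fell and 0 of 3 that rose held it, beside 14.0% of all 27025 genes. This says only that these letters are not in those windows. The window of Prdx1, whose match overlaps an AP-1 site, is shown beside those of Gsto1 and Gstm1, the 2 largest falls, with the matched core in capitals.
Prdx1 (chr4:116685349-116685648, plus strand): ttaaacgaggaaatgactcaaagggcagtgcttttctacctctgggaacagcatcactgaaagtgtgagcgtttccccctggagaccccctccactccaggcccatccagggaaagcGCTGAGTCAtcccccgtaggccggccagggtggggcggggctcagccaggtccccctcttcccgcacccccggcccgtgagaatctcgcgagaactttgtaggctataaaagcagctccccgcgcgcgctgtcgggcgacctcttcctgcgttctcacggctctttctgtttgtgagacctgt
Gsto1 (chr19:47854723-47855022, plus strand): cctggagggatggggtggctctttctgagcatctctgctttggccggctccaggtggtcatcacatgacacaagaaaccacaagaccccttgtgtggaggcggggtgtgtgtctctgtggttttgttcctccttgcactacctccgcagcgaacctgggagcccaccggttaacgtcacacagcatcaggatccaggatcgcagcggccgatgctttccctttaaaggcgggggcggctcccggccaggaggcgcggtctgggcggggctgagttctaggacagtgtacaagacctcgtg
Gstm1 (chr3:108017769-108018068, minus strand): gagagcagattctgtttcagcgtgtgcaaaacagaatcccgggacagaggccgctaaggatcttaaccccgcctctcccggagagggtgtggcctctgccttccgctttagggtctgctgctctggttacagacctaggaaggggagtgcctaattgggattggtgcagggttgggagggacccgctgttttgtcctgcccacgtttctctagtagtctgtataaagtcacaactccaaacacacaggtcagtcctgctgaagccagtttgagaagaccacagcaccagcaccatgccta

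Other genes of the same pathways moved in both directions. Of 23 genes of glutathione synthesis, import and breakdown 18 were tested, with a median log2 fold change of -0.04. Among them 3 rose (16.7%) and 2 fell (11.1%), beside 5.14% and 5.8% of all tested genes. Ggt1, which splits extracellular glutathione, had 6 and 6 in Myh9 KO and 2 and 2 in WT. Cbs, which opens the route from homocysteine to cysteine, had 63 and 65 in Myh9 KO and 44 and 45 in WT. Slc3a2, the heavy chain of the cystine transporter, had 432 and 432 in Myh9 KO and 330 and 350 in WT. Its partner in that transporter, Slc7a11, named here after its values were seen, was listed at 0 in all libraries. Cth, the next enzyme after Cbs, fell, with 115 and 109 in Myh9 KO and 151 and 154 in WT. Glo1, which uses glutathione to clear methylglyoxal, also fell, with 281 and 265 in Myh9 KO and 454 and 466 in WT (log2 fold change -0.75, SE 0.04, limma adjusted p = 0.0138). Gclc, the rate-limiting enzyme of glutathione synthesis (9 and 9 in Myh9 KO, 10 and 11 in WT), and its partner Gclm (64 and 77 in Myh9 KO, 74 and 79 in WT), named here after their values were seen, were not called.

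Of 21 other thioredoxin-system genes 17 were tested, with a median log2 fold change of -0.14. Both limma fits called 0 of them, beside 10.9% of all tested genes. At an unadjusted limma p under 0.05 there were 8 of the 17, beside 33.2% of all genes. The random-decimal fit alone called 6, all lower, beside 12% of all genes lower and 11% higher. Txnrd1, the cytosolic thioredoxin reductase, had 132 and 126 in Myh9 KO and 153 and 162 in WT (log2 fold change -0.29, limma adjusted p = 0.0701, random-decimal adjusted p = 0.0108).

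Of 21 genes of NADPH supply 18 were tested, with a median log2 fold change of 0.01. Among them 2 rose (11.1%) and 3 fell (16.7%), beside 5.14% and 5.8% of all tested genes. Idh1, the cytosolic isocitrate dehydrogenase, had 47 and 45 in Myh9 KO and 86 and 83 in WT (log2 fold change -0.86, SE 0.04, limma adjusted p = 0.00909). Its mitochondrial counterpart Idh2 had 215 and 220 in Myh9 KO and 268 and 269 in WT, and Pgd of the pentose phosphate pathway had 277 and 285 in Myh9 KO and 333 and 340 in WT. The folate enzymes Aldh1l1 (16 and 15 in Myh9 KO, 6 and 6 in WT) and Mthfd2 (110 and 105 in Myh9 KO, 80 and 81 in WT) rose, with log2 fold changes of 1.24 and 0.41. Both lie on chromosome 6, where 30.5% of tested genes were called higher and the median was 0.45, above the value of Mthfd2. Of 4 superoxide dismutases and catalase 3 were tested and 1 fell, beside 5.8% of all tested genes. This was the mitochondrial Sod2, with 96 and 100 in Myh9 KO and 116 and 119 in WT. Of 10 genes of selenoprotein synthesis 9 were tested and 1 rose (11.1%), beside 5.14% of all tested genes. This was Trnau1ap, a binding protein of the selenocysteine tRNA, with 111 and 111 in Myh9 KO and 80 and 79 in WT.

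**Figure D5:**
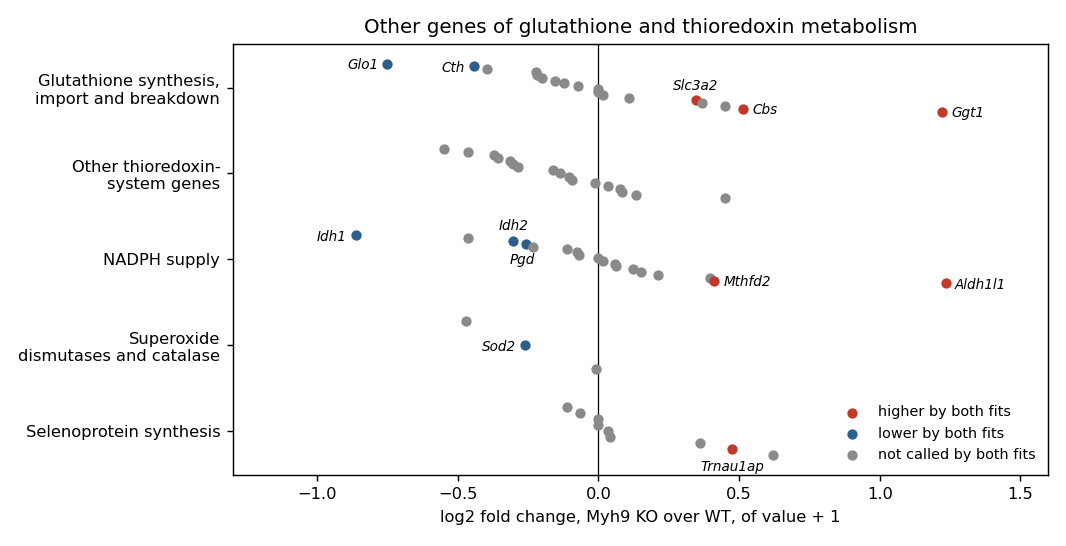
Log2 fold change, Myh9 KO over WT, of value + 1 (x axis) for each tested gene of 5 accompanying lists (rows), coloured by whether both limma fits called it. Called genes are named; Ggt1 and Aldh1l1 lie farthest right and Idh1 and Glo1 farthest left.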

How the data were processed

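Messenger RNA was enriched with oligo-dT beads and made into libraries, per the labels' protocols, which name no step that marks the strand. The submitters' processing notes name bcl2fastq, Bowtie2 2.2.5 and RSEM 1.3.0, and the builds mm10 and hg38, without roles. The unit of the deposited values was taken as a score, since they were whole numbers with nearly equal totals, as per-million values without decimals would be. The authors' rounding and unit are not given in the sources used here, and no counting interval can be given.

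Testing covered genes whose mean over the 4 libraries reached 1, by limma 3.58.1 (R 4.3.3, trend) on log2(value + 1), and again with a random number between 0 and 1 added to each value (median adjusted p of 25 draws), since equal whole numbers leave no spread. All 49 members were found in GENCODE vM21. Where a gene shares 50-base words with others, its value is uncertain. Every row the name rule selects is accounted for, and of each accompanying list the called genes are named, or, where none is, the gene of highest mean deposited value. The members, lists and tests were chosen with earlier results of these data known.

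Alternatives were each fit alone, other random ranges, pseudocounts, filters and scalings, a GC content and length trend or the chromosome median removed, each library left out, and the replicate number as a block.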

Additional observations from a re-analysis of the deposited data

How the results depend on the processing

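Gstm1 was called by both fits with any 1 of the 4 libraries left out. Over the 4 left-out libraries, both fits called 0 to 2 members higher and 1 to 5 lower, and 133 to 335 genes higher and 194 to 414 lower; the random-decimal fit alone, added after seeing the data, called 2 to 5 and 9 to 10 members, and 664 to 1260 and 658 to 1515 genes (962 and 1122 without Myh9 KO 2). With 1 library left in a group, its spread is assumed to be like that of the other. With the replicate number as a block, both fits called 0 members in either direction, and 10 genes higher and 44 lower, while the random-decimal fit with the block called 5 and 10 members and 1256 and 1364 genes. The numbers were not taken to pair the samples, as the deviations of same-numbered libraries correlated at 0.0407. The random-decimal fit alone called 1236 genes higher and 1351 lower. After adjusting for GC content and length, 8 members and 1322 genes were higher and 1225 genes lower, and Prdx4 turned to a log2 fold change of 0.059. Over the other alternatives, leaving out the libraries and the block, 148 of 153 calls of the 14 called members were kept, 4 were lost and 1 reversed. The cause was not tested. The kept calls include those of each fit alone, which keeps every call by definition, since a call needs both fits. Gstk1 did not pass the highest filter and is not counted there. Without counts the precision of low values such as those of Gstk1 and Gstt2 is unknown.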
